A study of Rattus norvegicus with 20 samples.

Results

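The alpha and mu classes of glutathione transferase were followed in rat liver through 10 genes: Gsta1, Gsta2, Gsta3, Gsta4, Gstm1, Gstm2, Gstm3, Gstm4, Gstm5 and Gstm7. Members were taken by symbol, as every probe set whose platform annotation, updated through RefSeq, named 1 of these genes. Of the 31042 probe sets on the array, 9 named exactly 1 member, 1 for each gene except Gsta2, and the array held such probe sets for 14217 genes in all. Gsta2 was measured only by a probe set that also names Gsta5, a close relative that is no member, and this set is reported apart as Gsta2/Gsta5. Liver RNA came from 20 female Sprague Dawley rats, each on its own 1-colour Affymetrix array, after 24 days on 1 of 4 diets with 5 rats each. BNF rats ate 5,6-benzoflavone, which binds the aryl hydrocarbon receptor (AhR), at a dose of 1650 mg in each kg of diet. D3T rats ate 3H-1,2-dithiole-3-thione at 600 mg per kg, and OLT rats ate oltipraz, a dithiolethione that carries a methyl and a pyrazinyl group on the same ring, at 500 mg per kg. Control rats ate the Harlan Teklad mash diet without a supplement. The ages of the rats are not given in the sources used here. Each value is a log2 expression value, so a difference of 1 is a doubling, and levels of different probe sets are not set against each other.

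Glutathione transferases join the tripeptide glutathione to electrophilic compounds, which makes these more water-soluble and ready for export from the cell. The soluble alpha and mu enzymes act as dimers of subunits and are abundant in hepatocytes, where they handle drug metabolites, lipid peroxidation products and carcinogens such as the epoxide of aflatoxin. Many of their genes are known targets of the transcription factor Nrf2, which binds the antioxidant response element (ARE) and which dithiolethiones activate. Some also carry the xenobiotic response element (XRE), to which the AhR binds.

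In the RefSeq annotation of the rat assembly GRCr8 the members lie in 3 clusters. On chromosome 9, Gsta3 and Gsta1 are neighbours among protein-coding genes. On chromosome 8, Gsta4, Gsta5 and Gsta2 follow each other. On chromosome 2, the run is Gstm5, Gstm6l, Gstm7, Gstm6, Gstm3l1, Gstm3, Gstm2, Gstm1 and Gstm4. All 10 members matched RefSeq windows of 300 bases, 250 before and 50 after an annotated start. Both strands were searched for the ARE core TGACNNNGC and the XRE core GCGTG, which do not overlap each other in the stretches printed here, though in Gstm5 an XRE core lies inside an ARE core match. The ARE core was in the windows of 5 of 10 members (Gsta1, Gsta2, Gsta3, Gstm5 and Gstm7) and in 13.1% of all 27457 genes with a window. The XRE core was in 5 of 10 members (Gsta2, Gsta3 by its second window, Gsta4, Gstm4 and Gstm5) and in 32.4% of all such genes. These are matches of letters and no measurement of binding. The windows of Gsta3 and Gsta1, genes with unequal differences in the results, were alike over most of their length, with 197 identical of 258 aligned columns (76.4%). Their ARE cores stood opposite each other in that alignment, 17 bases before the start of Gsta3 as TGACTTCGC and 31 bases after the start used for Gsta1 as TGACTTTGC. Both are shown for that likeness, in lower case with motif matches in capitals. Gsta1 is shown only as far as it lies outside the annotated span of the gene, so its ARE core is not in the stretch printed and that stretch has no capitals. In Gsta2, a pair of XRE cores on opposite strands stood side by side 24 to 15 bases before the start used. The 30 bases around them are shown in the same way. These 30 bases lie before the start used but inside the annotated span of Gsta2. The shared probe set of this gene was called in BNF, D3T and OLT livers alike, and the window of Gsta5, its other gene, has no XRE core. Gsta4, Gstm4 and, by its second window, Gsta3 have XRE cores before their starts and were not called in BNF livers with all arrays. The tested members without an XRE core were not called in BNF livers either, and Gstm5, which has one, lay at the floor. Sequence outside the windows was not searched. Whether XRE cores had a part in any difference was not tested. The stretches are chr9:31154739-31154988 (plus strand), chr9:31216607-31216782 (minus strand) and chr8:88077097-88077126 (minus strand) of GRCr8, each written 5′ to 3′ along its gene.
Gsta3: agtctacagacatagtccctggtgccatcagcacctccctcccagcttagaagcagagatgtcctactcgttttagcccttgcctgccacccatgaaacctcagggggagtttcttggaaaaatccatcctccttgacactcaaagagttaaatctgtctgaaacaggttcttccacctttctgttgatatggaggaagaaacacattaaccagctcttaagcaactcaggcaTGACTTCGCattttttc
Gsta1: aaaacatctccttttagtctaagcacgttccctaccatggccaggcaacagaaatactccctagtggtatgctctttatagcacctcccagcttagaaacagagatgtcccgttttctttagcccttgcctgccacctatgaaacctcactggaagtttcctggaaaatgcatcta
Gsta2: tattaaagtgGCGTGCACGCtcctctggag

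The liver label was checked with hepatocyte markers such as albumin, and all 9 that the array measured passed the filter. Their values were summed on the linear scale, and the log2 of the sum lay between 17.85 and 18.29 on every array. The sums of the other marker lists below were made in the same way, so each follows mainly the most abundant genes of its list. Probe sets were tested where 5 or more arrays exceeded log2 4, which 12947 did, for 7837 genes. The array labelled D3T 5 was closer to the OLT arrays (mean r = 0.979 across tested probe sets) than to the other D3T arrays (0.968), and its closest array was OLT 2. The array labelled OLT 1 was closer to the D3T arrays (0.966) than to the other OLT arrays (0.963), and its closest array was D3T 2. A closest array under the other label was not particular to these 2. D3T 1 was closest to OLT 5, though its mean r was higher with D3T (0.965) than with OLT arrays (0.961). OLT 2 and OLT 4 were closest to the array labelled D3T 5. Among the 8 tested member probe sets, the array labelled D3T 5 lay below all other D3T arrays in 8 and nearer the mean of the other OLT arrays in 8. The array labelled OLT 1 lay above all other OLT arrays in 7 of 8 and nearer the mean of the other D3T arrays in the same number, Gstm2 being the exception. Whether the 2 labels were exchanged was not tested, and an exchange would alter every D3T and OLT mean, SD and difference given here, all of which follow the labels as deposited. Most differences are given with all arrays and then without these 2. Because the 2 were picked by their resemblance to the other dithiolethione diet, in the member probe sets too, leaving them out widens the OLT and D3T gap and narrows the spread by construction, and the values without them are a description that supports no call. How precisely any value is known is limited by the number of arrays, and in whole liver fewer cells of a type and less RNA per cell cannot be told apart. Doses of D3T and OLT differ, so their comparison is of diets and not of compounds at 1 dose.

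**Figure D1:**
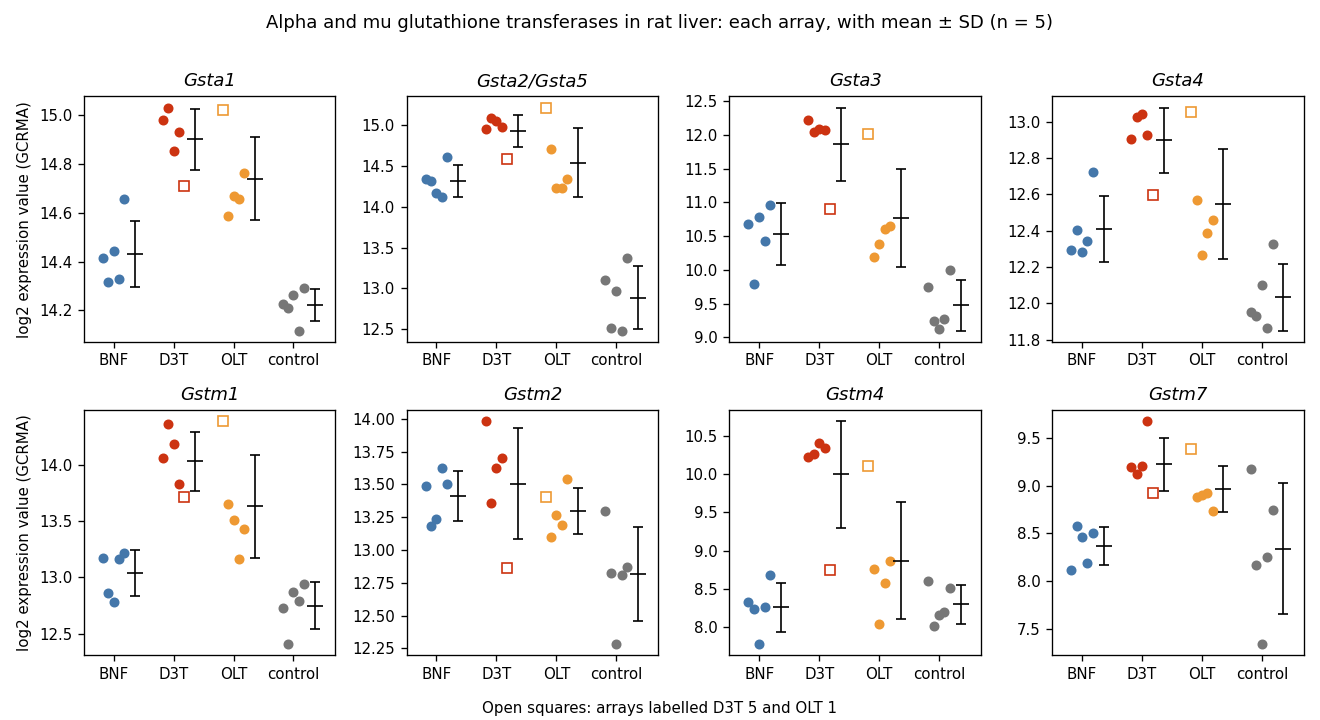
Log2 expression values of the 8 tested member probe sets, 1 panel each, by diet, with 1 point per array and the mean ± SD (n = 5) beside the points. D3T arrays hold the highest mean in every panel, and the arrays labelled D3T 5 and OLT 1, drawn as open squares, lie away from the other arrays of their labels in most panels.

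Gsta3, the Yc2 subunit known in rats for conjugating the aflatoxin epoxide, had the largest D3T difference of the 7 members tested by their own probe sets. It read 10.68, 9.79, 10.78, 10.43 and 10.97 in BNF livers, 12.22, 12.04, 12.08, 12.07 and 10.90 in D3T livers, 12.02, 10.19, 10.39, 10.60 and 10.65 in OLT livers, and 9.74, 9.24, 9.12, 9.28 and 10.001 in control livers. All D3T and all OLT arrays lay above all control arrays, while BNF 2 fell among the controls. Gsta3 rose in D3T livers to 11.86 ± 0.54, against 9.48 ± 0.38 in control livers (mean ± SD, n = 5 each), a log2 difference of 2.38 (SE 0.32, limma adjusted p = 9.71e-05) or 5.22-fold. Without the arrays labelled D3T 5 and OLT 1 the difference was 2.62 (adjusted p = 3.29e-07). In OLT livers it rose to 10.77 ± 0.72, a difference of 1.29 from control (SE 0.32, adjusted p = 0.0205), or 0.98 without the 2 arrays (adjusted p = 0.0128). Without control 2 the OLT difference was 1.23 and missed the threshold (adjusted p = 0.0526). In BNF livers it averaged 10.53 ± 0.46, and the difference of 1.05 (SE 0.32) did not pass (adjusted p = 0.0783). Its adjusted p was 0.00577 without the 2 arrays, which enter the shared estimate of spread.

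The probe set of Gsta2 and Gsta5 was called in all 3 supplemented diets. Gsta2 encodes the Ya subunit. The set read 14.34, 14.31, 14.17, 14.11 and 14.61 in BNF livers, 14.94, 15.08, 15.05, 14.98 and 14.58 in D3T livers, 15.21, 14.70, 14.22, 14.22 and 14.33 in OLT livers, and 13.10, 12.51, 12.97, 12.48 and 13.37 in control livers. No array of any supplemented diet overlapped the controls. Against control (12.89 ± 0.38) the set rose 2.68-fold in BNF livers (14.31 ± 0.19, adjusted p = 0.000164), 4.11-fold in D3T livers (14.93 ± 0.20, adjusted p = 2.77e-06) and 3.14-fold in OLT livers (14.54 ± 0.42, adjusted p = 5.54e-05). Log2 differences were 1.42, 2.04 and 1.65 (SE 0.19 each), and 1.42, 2.12 and 1.48 without the 2 arrays, when each was again called. The annotation assigns this set to both genes, so their signals cannot be separated.

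Gsta1, the Yc1 subunit, moved less, with tight groups. It read 14.42, 14.32, 14.44, 14.33 and 14.66 in BNF livers, 14.98, 15.03, 14.85, 14.93 and 14.71 in D3T livers, 15.02, 14.59, 14.67, 14.66 and 14.76 in OLT livers, and 14.23, 14.21, 14.26, 14.12 and 14.29 in control livers. Every array of the 3 supplemented diets lay above every control array. Gsta1 rose by 0.68 in D3T livers (SE 0.08, adjusted p = 3.95e-05; 0.73 without the 2 arrays) and by 0.52 in OLT livers (SE 0.08, adjusted p = 0.000971; 0.45 without the 2 arrays). Its 0.21 in BNF livers (SE 0.08) did not pass in either fit, with an adjusted p of 0.192, or 0.074 without the 2 arrays.

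Gsta4, whose product is known for conjugating 4-hydroxynonenal from oxidised lipids, read 12.29, 12.40, 12.28, 12.34 and 12.72 in BNF livers, 12.90, 13.02, 13.04, 12.92 and 12.60 in D3T livers, 13.06, 12.57, 12.27, 12.39 and 12.46 in OLT livers, and 11.95, 11.93, 12.10, 11.86 and 12.33 in control livers. D3T arrays were clear of the controls, while control 5 lay above some BNF and OLT arrays. Gsta4 rose by 0.86 in D3T livers (SE 0.13, adjusted p = 0.00039; 0.94 without the 2 arrays) and by 0.51 in OLT livers (SE 0.13, adjusted p = 0.0279; 0.39 and adjusted p = 0.0431 without the 2 arrays). The OLT call was lost when control 1, control 2, control 4, OLT 1 or OLT 2 was left out singly, with adjusted p between 0.0576 and 0.0693. The BNF difference of 0.37 (SE 0.13) had an adjusted p of 0.147, and 0.0414 without the 2 arrays.

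Gstm1, the Yb1 subunit, was clear of the controls under both dithiolethiones. It read 13.18, 12.86, 12.78, 13.17 and 13.21 in BNF livers, 14.07, 14.36, 14.19, 13.83 and 13.72 in D3T livers, 14.40, 13.65, 13.51, 13.17 and 13.43 in OLT livers, and 12.73, 12.41, 12.87, 12.79 and 12.94 in control livers. D3T and OLT arrays all lay above the controls, and BNF arrays overlapped them. Gstm1 rose to 14.03 ± 0.26 in D3T livers and 13.63 ± 0.46 in OLT livers, against 12.75 ± 0.21 in control livers, which is 2.44-fold (adjusted p = 0.000161) and 1.85-fold (adjusted p = 0.00638). The log2 differences were 1.28 for D3T and 0.88 for OLT, beside 1.36 and 0.69 without the 2 arrays. The BNF difference was 0.29 (SE 0.18, adjusted p = 0.487, and 0.246 without the 2 arrays).

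Gstm4 rose under D3T and was not called under OLT or BNF. It read 8.33, 8.24, 7.78, 8.27 and 8.68 in BNF livers, 10.22, 10.26, 10.40, 10.34 and 8.75 in D3T livers, 10.11, 8.76, 8.04, 8.57 and 8.86 in OLT livers, and 8.60, 8.01, 8.16, 8.20 and 8.51 in control livers. D3T 1 to 4 and the array labelled OLT 1 stood above 10, and the array labelled D3T 5 was among the remaining OLT arrays though still above the controls. Gstm4 rose by 1.70 in D3T livers (SE 0.33, adjusted p = 0.00257), or 3.25-fold, and by 2.01 without the 2 arrays (adjusted p = 1.23e-06), or 4.03-fold. In OLT livers the difference was 0.57 (95% interval -0.12 to 1.26, adjusted p = 0.312) and 0.26 without the 2 arrays (adjusted p = 0.495). In BNF livers it was -0.04 (95% interval -0.73 to 0.65, adjusted p = 0.991), which turned to 0.030 when arrays were centred on their medians and to 0.043 under quantile normalization.

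Gstm2, the Yb2 subunit, read 13.49, 13.18, 13.23, 13.63 and 13.51 in BNF livers, 13.98, 13.36, 13.62, 13.70 and 12.86 in D3T livers, 13.40, 13.10, 13.27, 13.19 and 13.54 in OLT livers, and 13.30, 12.82, 12.28, 12.81 and 12.87 in control livers. Control 1 reached into every other diet's range. Gstm2 rose by 0.69 in D3T livers (SE 0.18, adjusted p = 0.0191; 0.85 without the 2 arrays), a call that was lost without D3T 1 (adjusted p = 0.0503) or D3T 3 (adjusted p = 0.0505). Its 0.59 in BNF livers (adjusted p = 0.0856, and 0.0418 without the 2 arrays) and 0.48 in OLT livers (adjusted p = 0.124, and 0.134 without them) did not pass with all arrays.

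Gstm7 read 8.12, 8.57, 8.46, 8.20 and 8.50 in BNF livers, 9.19, 9.12, 9.20, 9.68 and 8.93 in D3T livers, 9.38, 8.88, 8.90, 8.92 and 8.73 in OLT livers, and 9.17, 8.17, 7.35, 8.26 and 8.75 in control livers. The controls spread wider than any other diet (SD 0.69), with control 1 at the D3T level. Gstm7 rose by 0.88 in D3T livers (SE 0.24, adjusted p = 0.023; 0.96 without the 2 arrays), which was lost without control 2 (adjusted p = 0.0566) or D3T 4 (adjusted p = 0.057). The OLT difference was 0.63 (95% interval 0.12 to 1.13, adjusted p = 0.132; 0.52 without the 2 arrays), and without control 1 it was 0.83 and passed (adjusted p = 0.039). The BNF difference was 0.03 (95% interval -0.48 to 0.54). Leaving out control 3 turned that BNF value to -0.22.

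Gstm3 and Gstm5 stayed at the floor of the method. Every array of every diet read between 2.23 and 3.05 for them, so neither passed the filter. Fitted without a filter, no diet gave either gene a difference from control over 0.10, with adjusted p of at least 0.624.

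Under D3T all 7 members tested by their own probe set rose, while 4.63% of all tested probe sets were called higher. Their log2 differences ran between 0.68 for Gsta1 and 2.38 for Gsta3, with a median of 0.88, beside -0.02 over all tested probe sets. In 5 of 7 (Gsta1, Gsta3, Gsta4, Gstm1 and Gstm4) the D3T and control arrays did not overlap, beside 4.15% of all probe sets that were higher without overlap. Without the arrays labelled D3T 5 and OLT 1 again 7 of 7 rose (5.5% of all), 6 of 7 did not overlap (6.18% of all) and the median was 0.96. In the same D3T livers 3 of 6 tested pericentral hepatocyte markers fell, Axin2 (-1.66), Oat (-1.12) and Glul (-1.07), beside 6.97% of all probe sets called lower. They were -1.88, -1.24 and -1.16 without the 2 arrays. The 8 measured markers of that list summed to between 15.14 and 15.58, against 15.39 to 15.85 in control livers. Of the 8, 2 lay at or under log2 4 on all D3T arrays, against 1 on all control arrays. Of 7 tested stellate cell and fibroblast markers 1 fell, Acta2 (-0.88, and -0.98 without the 2 arrays), with sums between 10.62 and 11.16 in D3T livers, against 10.54 to 11.16 in control livers. The part of these shifts in the glutathione transferase differences was not tested.

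Under OLT 4 of the 7 members rose, namely Gsta1, Gsta3, Gsta4 and Gstm1, while 1.53% of all tested probe sets were called higher. The other 3, Gstm2, Gstm4 and Gstm7, had positive differences that did not pass. The median over the 7 was 0.57, beside -0.04 over all tested probe sets. Groups did not overlap for Gsta1, Gsta3 and Gstm1, beside 1.82% of all probe sets, and in 3 of 7 without the 2 arrays (2.6% of all). Without the 2 arrays the same 4 genes were called (1.27% of all higher) and the median was 0.46. Without control 2 the count was 2 of 7. Over all fits with a single array left out, 523 to 1310 of the 12947 tested probe sets were called, higher or lower. In the same OLT livers 1 of 8 tested macrophage markers fell, Cd163 (-1.46, adjusted p = 0.0254), beside 4.85% of all probe sets called lower, and 3 had an unadjusted p under 0.05. Cd163 was -1.33 without the 2 arrays (adjusted p = 0.0766). The median over the 8 was -0.56, and they summed to between 10.45 and 12.09 in OLT livers, against 11.47 to 12.27 in control livers, with none at or under log2 4 on all arrays of either. The part of this shift in the glutathione transferase differences was not tested.

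Under BNF none of the 7 members passed limma's test with all arrays, although 4 (Gsta1, Gsta3, Gsta4 and Gstm2) had an unadjusted p under 0.05, and 1.46% of all tested probe sets were called higher. No other tool was run. The shared Gsta2/Gsta5 set, which is not among these 7, was called. The median was 0.29, beside -0.05 over all tested probe sets, and differences lay between -0.04 and 1.05. Without the arrays labelled D3T 5 and OLT 1, 3 of 7 were called higher, namely Gsta3, Gsta4 and Gstm2, and 1.74% of all probe sets. Leaving out only the array labelled D3T 5 gave 2 calls (Gsta3 and Gstm2), and leaving out OLT 1 or control 1 gave 1 each. Over all fits with a single array left out, 263 to 508 of the 12947 tested probe sets were called, higher or lower. Gsta1 was the only one of the 7 whose BNF and control arrays did not overlap, beside 2.62% of all probe sets.

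Markers of other liver cells moved in the same BNF livers. Of 7 tested stellate cell and fibroblast markers 4 rose (Col1a1, Col1a2, Col3a1 and Dcn), beside 1.46% of all probe sets called higher, and the 10 measured ones summed to between 11.51 and 12.35, against 10.54 to 11.16 in control livers. At or under log2 4 on every array were 2 of these 10 in BNF livers and 3 in control livers. Macrophage markers had 1 of 8 called higher (Tyrobp), while 6 had an unadjusted p under 0.05 and the median over the 8 was 0.95. They summed to between 12.12 and 13.32 in BNF livers, against 11.47 to 12.27 in control livers. Periportal hepatocyte markers had 3 of 8 lower (Sds, Gls2 and Hal), beside 2.02% of all probe sets called lower, with sums between 16.92 and 17.04 in BNF livers, against 16.89 to 17.28 in control livers. The counts of called markers in these 3 lists were the same without the 2 arrays. Of 2 tested cholangiocyte markers 1 was called higher with all arrays and none without the 2, and of 4 endothelial and 2 lymphocyte markers limma called none, with 1 of each at an unadjusted p under 0.05. The part of these shifts in the glutathione transferase differences was not tested.

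**Figure D2:**
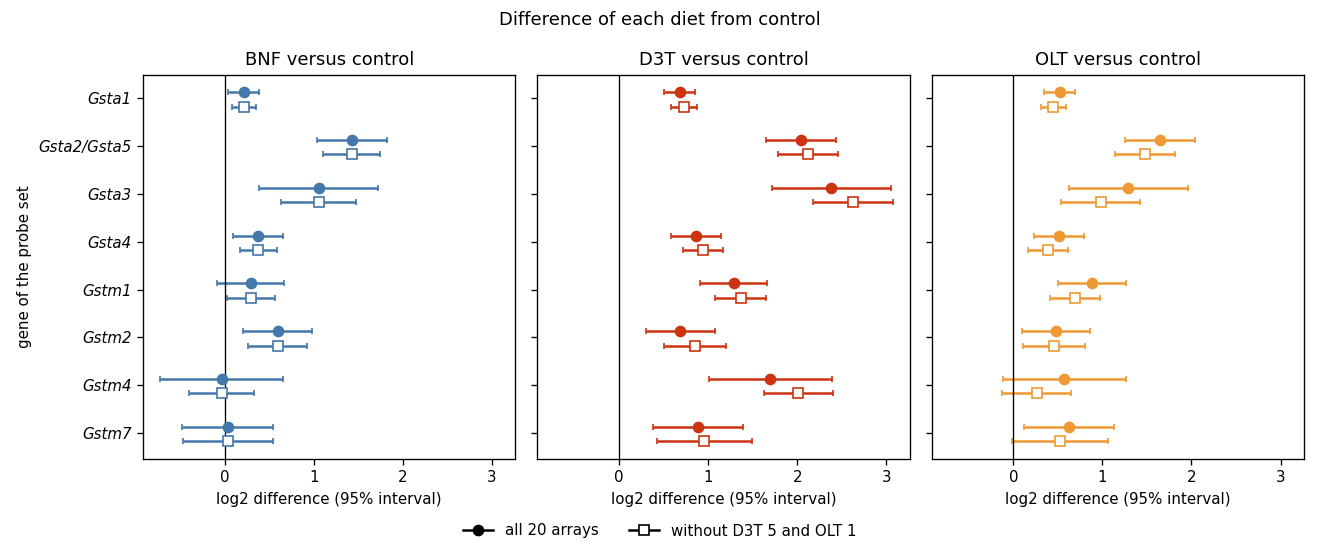
Log2 difference from control of each diet for the 8 member probe sets, with 95% intervals from the limma fit, for all 20 arrays (filled) and without the arrays labelled D3T 5 and OLT 1 (open). The D3T intervals all lie above 0, Gstm4 is at 1.70 under D3T and at -0.04 under BNF, and Gsta2/Gsta5 is above 1 in every diet.

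D3T gave the highest mean of the 4 diets for 8 of 8 member probe sets. The order D3T, OLT, BNF, control held in 6 of 8, and control was lowest in 7 of 8, with BNF lowest for Gstm4. Without the 2 arrays these counts were 8, 5 and 7 of 8, again with BNF lowest for Gstm4. Neighbours in that order often did not differ beyond their spread.

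OLT livers were set against D3T livers directly. With all arrays no member passed limma's test, no tested probe set of the 12947 did (0% called), and 4 of 7 members had an unadjusted p under 0.05. All 7 differences were negative, between -0.16 for Gsta1 and -1.13 for Gstm4 (SE 0.33, adjusted p = 0.226). Without the arrays labelled D3T 5 and OLT 1, limma's count was 5 of 7 lower in OLT livers, beside 2.47% of all probe sets, a count that the choice of these 2 arrays helps to make. The differences were then -1.75 for Gstm4, -1.65 for Gsta3, -0.67 for Gstm1, -0.55 for Gsta4, -0.28 for Gsta1 and -0.64 for the Gsta2/Gsta5 set. Gstm2 stood at -0.39 (95% interval -0.76 to -0.03) and Gstm7 at -0.44 (95% interval -1.004 to 0.13). Leaving out only D3T 5 or only OLT 1 gave a count of 2 each time, for Gsta3 and Gstm4. Over all fits with a single array left out, 0 to 236 of the 12947 tested probe sets were called in this comparison. Of 6 tested pericentral markers limma called none between OLT and D3T livers with all arrays, with 3 at an unadjusted p under 0.05. Without the 2 arrays limma called 2 of the 6 higher in OLT livers, Axin2 (1.49, adjusted p = 0.00621) and Glul (0.82, adjusted p = 0.00718). In that fit 1 of 8 periportal markers (Hal, 1.03) and 1 of 7 stellate cell and fibroblast markers (Acta2, 0.77) were also called higher. The choice of the 2 arrays helps to make these counts too. The share of all probe sets called higher in that fit is not given here, so the marker counts cannot be set against it. The part of these markers in the glutathione transferase differences was not tested.

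**Figure D3:**
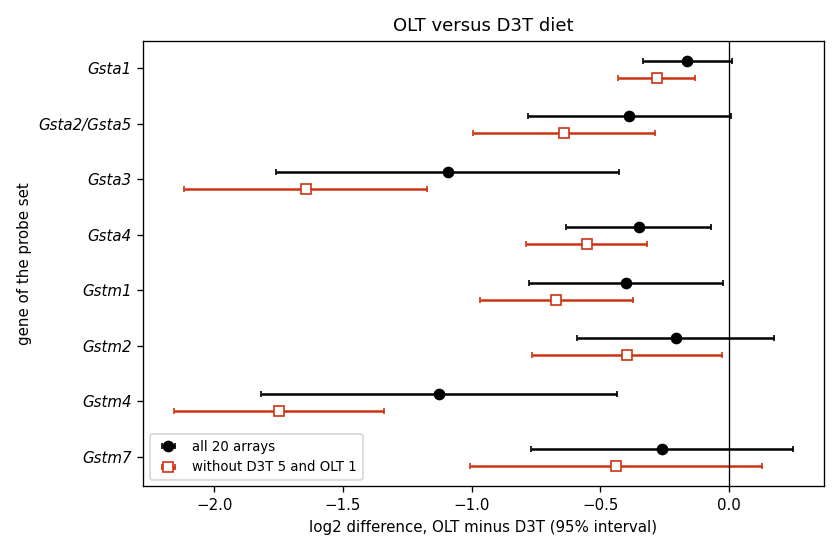
Log2 difference between OLT and D3T livers for each member probe set with its 95% interval, for all 20 arrays (filled) and without the arrays labelled D3T 5 and OLT 1 (open). Without the 2 arrays Gstm4 lies at -1.75 and Gsta3 at -1.65, and only the interval of Gstm7 crosses 0.

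BNF livers were lower than D3T livers for most members. Of the 7, 6 fell in BNF livers, all but Gstm2, against 8.7% of all tested probe sets, and in 4 the arrays did not overlap (7.46% of all). Gstm4 differed by -1.74 (SE 0.33, adjusted p = 0.00144), Gsta3 by -1.33 (SE 0.32, adjusted p = 0.00791) and Gstm1 by -0.99 (SE 0.18, adjusted p = 0.000984), which were -2.05, -1.57 and -1.07 without the 2 arrays. Gsta2/Gsta5 fell by 0.62 (adjusted p = 0.0328; -0.70 without the 2 arrays), and Gstm2 differed by -0.10 (95% interval -0.48 to 0.29; -0.26 without them). The count without the 2 arrays was again 6 (8.58% of all), and the arrays then did not overlap in 6 (10% of all). Between BNF and OLT livers 2 of 7 were lower in BNF livers, Gsta1 with a difference of -0.31 (adjusted p = 0.0231) and Gstm1 with -0.59 (adjusted p = 0.0436; -0.40 and adjusted p = 0.0783 without the 2 arrays), against 4.29% of all. Only Gsta1 was called without the 2 arrays (-0.24, adjusted p = 0.0398), against 3.89% of all. Singly, leaving out BNF 1, BNF 2, BNF 4 or OLT 1 gave no call. Leaving out BNF 3, BNF 5, control 3, control 4, D3T 3, OLT 2 or OLT 3 gave 1. Over all fits with a single array left out, 777 to 1675 of the 12947 tested probe sets were called, higher or lower.

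Cell markers moved in these 2 comparisons as well. Macrophage markers were called higher in BNF livers in 6 of 8 against D3T (6.24% of all probe sets) and in 8 of 8 against OLT (5.33% of all), with the same counts without the 2 arrays. Their sums lay between 12.12 and 13.32 in BNF livers, against 10.999 to 12.14 in D3T livers and 10.45 to 12.09 in OLT livers. Stellate cell and fibroblast markers were called higher in BNF livers in 5 of 7 against D3T and 4 of 7 against OLT (5 and 3 without the 2 arrays), with sums between 11.51 and 12.35 in BNF livers, against 10.62 to 11.16 in D3T livers and 10.36 to 11.23 in OLT livers. Pericentral markers were higher in BNF livers in 3 of 6 against D3T in both fits, and in 1 of 6 against OLT with all arrays. Periportal markers were lower in BNF livers in 1 of 8 against D3T and 3 of 8 against OLT in both fits. The part of these shifts in the glutathione transferase differences was not tested.

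**Figure D4:**
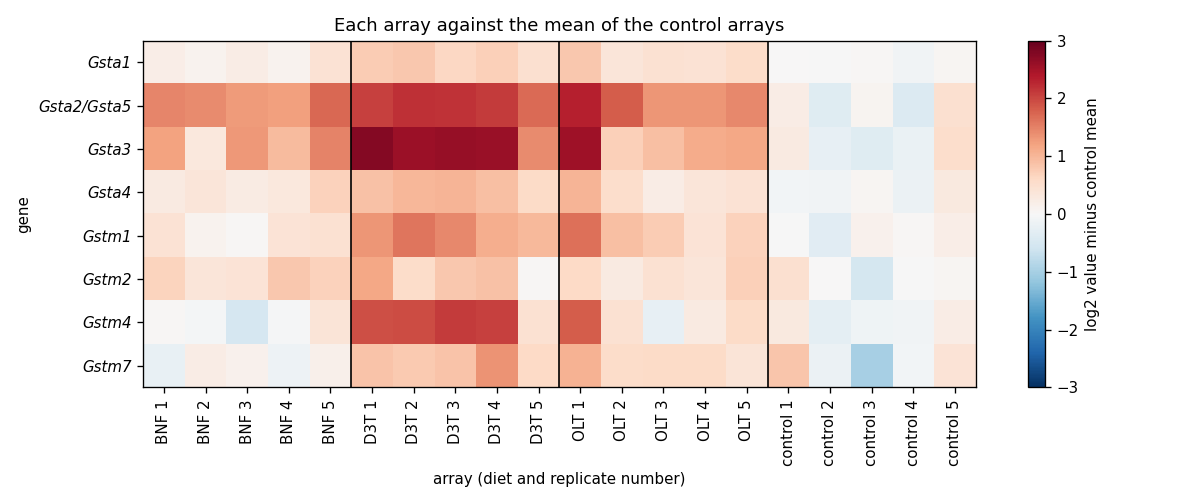
Log2 value of each member probe set (rows) on each array (columns, grouped by diet and numbered by replicate) minus the mean of the 5 control arrays. Gsta2/Gsta5 and Gsta3 reach the strongest red in D3T 1 to 4 and in the array labelled OLT 1, while Gstm4 lies between -0.51 and 0.38 in the BNF arrays and at 0.45 in the array labelled D3T 5, below its 1.93 to 2.11 in D3T 1 to 4.

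The members varied together across arrays. Over 28 pairs of member probe sets Pearson's r across the 20 arrays lay between 0.53 (Gstm1 with Gstm2) and 0.93 (Gsta3 with Gsta4), with a median of 0.79. Without the arrays labelled D3T 5 and OLT 1 the median was 0.82. After each diet's mean was taken out the median was 0.66, and 0.36 when these 2 arrays were left out as well, with a range between -0.22 (Gstm1 with Gstm7) and 0.81 (Gsta2/Gsta5 with Gsta4). Arrays share a diet and a normalization, so these are descriptions of the 20 arrays with no test.

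Among 7830 other genes, the 2 with the pattern most like each member's over the 20 arrays were picked by Pearson's r. Gsta3 was most like Mgst2, a microsomal glutathione transferase (r = 0.98, and 0.93 within diets), and then Pgd (r = 0.96), an NADPH-forming enzyme of the pentose phosphate pathway. Gsta4 was most like the same pair, Pgd (r = 0.95) and Mgst2 (r = 0.94). Gsta1 was most like Gstt3, a theta class transferase (r = 0.98), and Ephx1, the microsomal epoxide hydrolase (r = 0.97). Ephx1 was also first for Gstm1 (r = 0.97), before Mif (r = 0.95), and for Gsta2/Gsta5 (r = 0.90), before Gna12 (r = 0.88). Gstm4 was most like the aldo-keto reductase Akr1b8 and Mrps16 (r = 0.96 each). Gstm2 had its nearest pattern in Pigp (r = 0.82) and Kctd2 (r = 0.81), and Gstm7 in Thtpa (r = 0.86) and Tle5 (r = 0.84). The r over the 20 arrays lay within 0.03 of the values given when the 2 arrays were left out. The r within diets was not computed without them.

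Other glutathione transferases, of the pi, theta, omega, kappa, zeta and microsomal classes together with Hpgds, gave 11 tested genes. Hpgds averaged 4.64 in control livers, little above the filter of log2 4. Over all tested probe sets, 1.46% were called higher and 2.02% lower in BNF livers, 4.63% and 6.97% in D3T livers, and 1.53% and 4.85% in OLT livers, the background for this and the following lists. In BNF livers none passed limma's test (7 had an unadjusted p under 0.05), in D3T livers 5 rose and in OLT livers 3, and none was called lower. Gstp1, the pi class enzyme, reached 14.07 ± 2.12 in D3T livers, against 7.31 ± 0.56 in control livers, a difference of 6.76 (SE 1.01, adjusted p = 0.000271) and 7.70 without the 2 arrays. Gstt3 rose by 2.20 in D3T livers and 1.70 in OLT livers (2.31 and 1.49 without the 2 arrays), and Mgst2 by 2.14 and 1.14 (2.38 and 0.82). In OLT livers Gstt1 rose by 1.25 (0.84 without the 2 arrays). Gstp1 in OLT livers had a difference of 3.26 that did not pass with all arrays (adjusted p = 0.0598), and 2.09 that passed without the 2 (adjusted p = 0.000368). Leaving out the 2 arrays gave counts of 2 for BNF (Gstp1 and Mgst2), 5 for D3T and 4 for OLT. The medians of the list were 0.05, 0.31 and 0.38 for BNF, D3T and OLT, and 0.05, 0.30 and 0.31 without the 2 arrays.

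Genes that supply and recycle glutathione and NADPH gave 14 tested members. In D3T livers 5 rose and 2 fell. Me1, malic enzyme, rose by 2.61 (SE 0.35), Pgd by 1.89 (SE 0.28) and Gss, glutathione synthetase, by 0.95 (SE 0.14), which were 2.94, 2.06 and 0.97 without the 2 arrays, while the glutaredoxin Glrx fell by 0.56 and Hagh, of methylglyoxal removal, fell by 0.55 (-0.59 and -0.62 without them). Gclc and Gclm, the subunits of the enzyme that makes the first step of glutathione synthesis, differed by 0.30 and 0.58 and did not pass (adjusted p = 0.327 each), nor without the 2 arrays (0.39 and 0.89, adjusted p = 0.0603 and 0.0542). In OLT livers 4 rose and none fell, among them Me1 by 1.28, Pgd by 0.96 and Gss by 0.51 (0.997, 0.68 and 0.36 without the 2 arrays, when Me1 alone was called). In BNF livers Glrx rose by 0.85 and Cbs, of cysteine formation, fell by 0.59. The counts without the 2 arrays were 1 higher and 2 lower for BNF and 6 higher and 2 lower for D3T.

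Genes of the mercapturate pathway, which trims glutathione conjugates, and of conjugate export gave 14 tested members. In BNF livers 3 fell and none rose. Oplah, a 5-oxoprolinase, fell by 0.97, Cndp2, a dipeptidase, fell by 0.73 and Acy1, an aminoacylase, fell by 0.57. In D3T livers Abcc4, a conjugate exporter, rose by 1.81 (2.24 without the 2 arrays) and Oplah fell by 0.73 in both fits. None was called in OLT livers by limma with or without the 2 arrays, and 1 had an unadjusted p under 0.05 with them. Leaving them out gave 1 higher and 4 lower for BNF and 2 higher and 1 lower for D3T.

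Of 14 tested Nrf2 targets outside the glutathione transferases, 10 rose in D3T livers and none fell, with a median of 0.89 (1.03 without the 2 arrays). Akr1b8 rose by 8.06 (SE 1.54), Akr7a3, an aflatoxin aldehyde reductase, by 4.36 (SE 0.61) and Osgin1 by 2.43 (SE 0.39), which were 9.64, 4.89 and 2.61 without the 2 arrays. In OLT livers 3 rose and 1 fell. Akr7a3 rose by 2.57 and Ephx1 by 1.70 (1.91 and 1.45 without the 2 arrays), and Hmox1, heme oxygenase, fell by 1.74 (-1.98 without them). In BNF livers only Nqo1, a quinone reductase that is on the lists of both Nrf2 and AhR targets, passed, rising by 3.22 (SE 0.38). Without the 2 arrays 2 rose in BNF livers, 11 in D3T livers, and 2 rose and 2 fell in OLT livers (1.27% and 3.32% of all). Of 7 tested AhR targets, 6 rose in BNF livers. Cyp1b1 rose by 10.58, Cyp1a1 by 8.33 and Aldh3a1, an aldehyde dehydrogenase, by 5.26, where control means of Cyp1b1 (2.48) and Aldh3a1 (2.98) lay at the floor. In D3T livers Nqo1 rose by 2.41 (2.67 without the 2 arrays) and Nfe2l2, also on the list, fell by 1.11 (-1.19 without the 2 arrays). In OLT livers none of the 7 was called by limma with all arrays (4 had an unadjusted p under 0.05), and 2 were called higher without the 2 arrays.

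Of 10 tested targets of the nuclear receptors CAR and PXR, 2 fell in BNF livers, Cyp3a9 (-1.61) and Ces2c (-0.95). In D3T livers 2 rose and 3 fell. Cyp3a9 fell by 2.30 (-2.65 without the 2 arrays), Por, the reductase that feeds electrons to cytochromes P450, fell by 1.88 (-1.99), and Ces2c rose by 0.87 (0.88). In OLT livers Por fell by 1.14 (-1.22). Without the 2 arrays 2 rose and 4 fell in D3T livers. Among 11 tested regulators, Nfe2l2, the gene of Nrf2, rose by 0.91 in BNF livers (SE 0.22, adjusted p = 0.0266) and fell by 1.11 in D3T livers (SE 0.22, adjusted p = 0.00306). Keap1, the Nrf2 inhibitor, rose by 0.63 in D3T livers (SE 0.13; 0.66 without the 2 arrays), and Mafk, a partner of Nrf2, rose by 0.50 in BNF livers. Nr1i2, the gene of PXR, fell by 0.90 in D3T livers and by 0.73 in OLT livers (-0.88 and -0.67 without the 2 arrays). For D3T the regulators numbered 1 higher and 2 lower with all arrays and 1 and 3 without the 2.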

How the data were processed

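The authors' deposited values are GCRMA summaries on the log2 scale, 1 column per rat and array, per the submitters' processing notes, which name GCRMA with no version and no genome build. GCRMA corrects background by probe sequence, normalizes between arrays and summarizes probes, and it leaves absent genes near a floor of about 2 to 3, where differences are compressed. The values, between 0.083 and 16.46, were used as given. Neither scan dates nor detection calls come with the table, which leaves scan batches unexamined. It holds 0 columns of other samples.

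Probe sets were named from the platform annotation, updated by gene ID through RefSeq: 20826 had 1 gene, 436 several and 9780 none, 20758 being updated and 68 kept under their old symbol. Probe sets above log2 4 in at least 5 arrays were tested (12947, for 7837 genes). Where a gene had several such probe sets, that with the highest mean stood for it, and each member had 1. Tests used R 4.3.3 and limma 3.58.1 (lmFit, eBayes with an intensity trend) fitted to all 20 arrays together by diet, with two-sided p, called at an adjusted p under 0.05 (Benjamini-Hochberg over all tested probe sets), for 6 comparisons. The method was tested on simulated data.

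Named genes were all members, up to 3 called genes per list and diet by size, up to 2 uncalled ones, and the 2 non-members most correlated with each member. Members, lists, tests and the omission of 2 arrays were chosen with earlier results of these data known. Alternatives were other scalings, filters, variance models, weighting of arrays, fits restricted to the pair of diets, blocking on the replicate number (replicate block), other choices among a gene's probe sets, and each array left out. Replicates are different rats, so p-values measure the spread between rats.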

Additional observations from a re-analysis of the deposited data

Results flagged for a closer look

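Among 32 sets of 5 arrays (8 member probe sets in 4 diets), 5 held an array that stood apart from the other 4 by Dixon's test for a single outlier. Chance alone would give about 1 in 20 for independent sets. These sets are not independent, because the 8 probe sets were read on the same arrays and varied together. The 5 can therefore not be set against that share. The arrays labelled D3T 5 and OLT 1, already singled out by these member values, gave 3 and 1 of the 5. In D3T livers the array labelled D3T 5 was low for Gsta3 (10.90, beside 12.04 to 12.22 in the other D3T arrays), for Gstm4 (8.747, beside 10.22 to 10.40) and for Gsta2/Gsta5 (14.58, beside 14.94 to 15.08). In OLT livers the array labelled OLT 1 was high for Gsta3 (12.02, beside 10.19 to 10.65). In BNF livers the array BNF 5 was high for Gsta4 (12.72, beside 12.28 to 12.40). The cause was not tested.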

How the results depend on the processing

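Counts are of the 7 members tested by their own probe set. Calls among all 12947 tested probe sets, higher or lower, moved too. With single arrays left out, calls against control numbered 263 to 508 for BNF, 969 to 1673 for D3T and 523 to 1310 for OLT. They numbered 0 to 236 for OLT versus D3T, 1344 to 2180 for BNF versus D3T and 777 to 1675 for BNF versus OLT. For most other alternatives the share over all probe sets is not given here. For BNF versus control the count was 0 with all arrays, 1 with median centring, 2 with quantile normalization, 4 with array weights, 1 in a fit of only the groups compared, 3 without both D3T 5 and OLT 1, and 0 to 2 with single arrays left out. For D3T versus control it was 7, and between 5 and 7 in all alternatives, with 6 to 7 when single arrays were left out. For OLT versus control it was 4, and between 2 and 6 in all alternatives. It was 2 with only the groups compared. Gstm2 and Gstm7 also passed under median centring, and Gstm7 with array weights. With single arrays left out it was 2 to 4. For OLT versus D3T it was 0, 2 with array weights, 5 without the 2 arrays (picked by their place between these diets, so no support for a difference), and 0 to 2 with single arrays left out. For BNF versus D3T it was 6, with 5 to 6. For BNF versus OLT it was 2, and 0 without the trend. It was 1 with quantile normalization, with no filter, with only the groups compared or without the 2 arrays. The highest count in any alternative was 3, with 0 to 2 when single arrays were left out. The replicate number as a block gave 0, 7, 4, 0 and 6 in the first 5 comparisons and 1 in BNF versus OLT, and nothing states that rats of a number belong together: over 30 same-number pairs of arrays the deviations from the diet means correlated with a median r of 0.06 (range -0.27 to 0.30), and 2 arrays correlated best with their own number. The BNF difference of Gstm4 changed sign under median centring (0.030), quantile normalization (0.043) and array weights (0.035) and lay between -0.14 and 0.081 with single arrays left out, and that of Gstm7 lay between -0.22 and 0.24. Other choices among probe sets changed nothing, since each member had 1. The cause of these changes was not tested, apart from fewer arrays in the fits that leave some out. Median centring moved all differences from control up by 0.07 (BNF), 0.15 (D3T) and 0.17 (OLT), and the share of higher among all called probe sets was 57.7%, 63.1% and 56.1%, beside 42.0%, 39.9% and 24.0% as deposited and 53.9%, 50.1% and 43.9% after quantile normalization. Signal limits Gstm3 and Gstm5, which lay at the floor, and the Gsta2/Gsta5 set cannot separate its genes. Probe positions were not checked, so the gene of each other member probe set rests on the annotation alone.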
